A study of Homo sapiens with 30 samples.

Results

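The comparison described here set UMUC1 cells that carried a catalytic-site mutant of UTX against cells that carried an empty vector, both grown in sphere medium. UMUC1 is an established human bladder cancer cell line whose own UTX, encoded by KDM6A, carries a mutation that the series record describes as loss of function. The mutant UTX (HEAA) has the changes H1146A and E1148A. HEAA and empty vector (EV) were both stably expressed from pSIN-puro, so every library came from a cell population that held that vector. The sphere medium was MEM without serum that held B27 lacking vitamin A together with 20 ng/ml each of FGF2 and EGF, and cells were harvested on day 3. The comparison rested on 6 of the 30 libraries of the series, 3 of HEAA and 3 of EV. All genes that passed a filter on low counts were its members, 19629 of the 58288 genes in the table. Other groups were used to place the result: wild type UTX in the same vector and medium (UTX), and HEAA and EV in full medium, which is MEM with 10% fetal bovine serum. All groups shared the cell line and the vector backbone, and the labels name no clones. Nothing in the labels says that the 3 libraries of a group came from separate cultures, so the p-values speak of the spread among these libraries, which may be technical.

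UTX is a demethylase that removes methyl groups from lysine 27 of histone H3, a mark laid down by the Polycomb complex PRC2 and found at silent developmental genes. It is also a subunit of the KMT2C and KMT2D complexes, which methylate histone H3 at enhancers. Its JmjC domain holds an iron atom through residues that include a histidine and a glutamate, and a protein with both replaced by alanine is used to ask which effects of UTX need its catalytic centre. UTX is one of the genes most often inactivated in bladder cancer. The stretch of coding sequence around the replaced residues is shown because the mutant differs from wild type UTX only there, per the labels. It comes from the GENCODE v29 transcript KDM6A-201 of 1401 codons, covers codons 1136 to 1158, and lies in KDM6A on chromosome X (44873177 to 45112602, plus strand, GRCh38). The capitals mark the wild type codons 1146 (CAT, histidine) and 1148 (GAA, glutamate).
KDM6A: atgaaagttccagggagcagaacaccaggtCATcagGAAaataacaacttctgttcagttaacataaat

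The libraries were deep, with 24250265 to 40111234 counts in HEAA and 31305529 to 34305388 counts in EV, and those of HEAA varied more in size. Cytosolic ribosomal protein genes took 5.57% to 5.66% of the counts in HEAA and 7% to 7.24% in EV. The 10 most abundant genes took 5.11% to 5.29% in HEAA and 7.21% to 7.59% in EV. Among the 18 libraries of the experiment, the second EV library in sphere medium stood apart from its group, with a chi-square per gene of 11.8 and 11.7 against the other 2 EV libraries, while every other pair within a group gave 2.16 to 6.73. Levels are given as CPM, counts relative to the size of the library with TMM scaling. All 9 epithelial markers were detected in both groups, and their summed level was 9030 to 9570 CPM in HEAA and 14700 to 15800 CPM in EV, most of it from KRT5. The 10 fibroblast markers summed to 14.9 to 17 CPM in HEAA and 12.2 to 13.9 CPM in EV, with COL3A1 and POSTN at 0 in both. The 10 leukocyte and endothelial markers summed to 18.3 to 19.6 CPM in HEAA and 11.9 to 14.2 CPM in EV, most of it from CD68, and KDR was at 0 in both.

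KDM6A had 926, 957 and 946 CPM in HEAA, against 7.71, 9.08 and 7.74 CPM in EV. The groups lay far apart, and the difference was 6.85 ± 0.05 on the log2 scale (SE, n = 3 each, adjusted p = 2.98e-27), or 115-fold. Adjusted p-values throughout are from edgeR's quasi-likelihood test across all 19629 genes with Benjamini-Hochberg adjustment, and a gene was called where the value was under 0.05. Wild type UTX libraries had 855, 878 and 849 CPM of KDM6A, all below the HEAA libraries, and HEAA exceeded UTX by 0.13 ± 0.04 (adjusted p = 0.0139). Counts per gene do not separate RNA of the vector from RNA of the cell's own gene, and they do not show the mutant residues.

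Expression of HEAA was accompanied by broad differences. Of the 19629 genes, 8118 were called (41.4%): 3906 were higher in HEAA (19.9%) and 4212 were lower (21.5%). The balance turned with upper-quartile size factors, to 4221 higher and 3892 lower. It also turned with RLE size factors (4067 and 3954), no count filter (4163 and 3499), only the libraries compared (3666 and 3646) and DESeq2 (3740 and 3522). A replicate block (3855 and 4146) and leaving out the second EV library (3786 and 3823) kept more genes lower than higher. Leaving out any other of the 6 libraries turned the balance. A change of at least 2-fold was called for 985 genes higher in HEAA (5.02%) and for 391 lower (1.99%). The 3 HEAA and 3 EV libraries did not overlap for 9464 genes (48.2%). The median log2 fold change of all genes was -0.02. Rises and falls were ranked among genes whose HEAA and EV libraries did not overlap and that averaged at least 2 CPM. The 12 largest rises included CDSN, TGM3, CYP4F22 and CNFN, known from the outer epidermal layer. The 12 largest falls included the matrix genes SPARC and LOX and the transcription factors MEOX1 and SOX2, as the plot of levels by library shows.

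**Figure D1:**
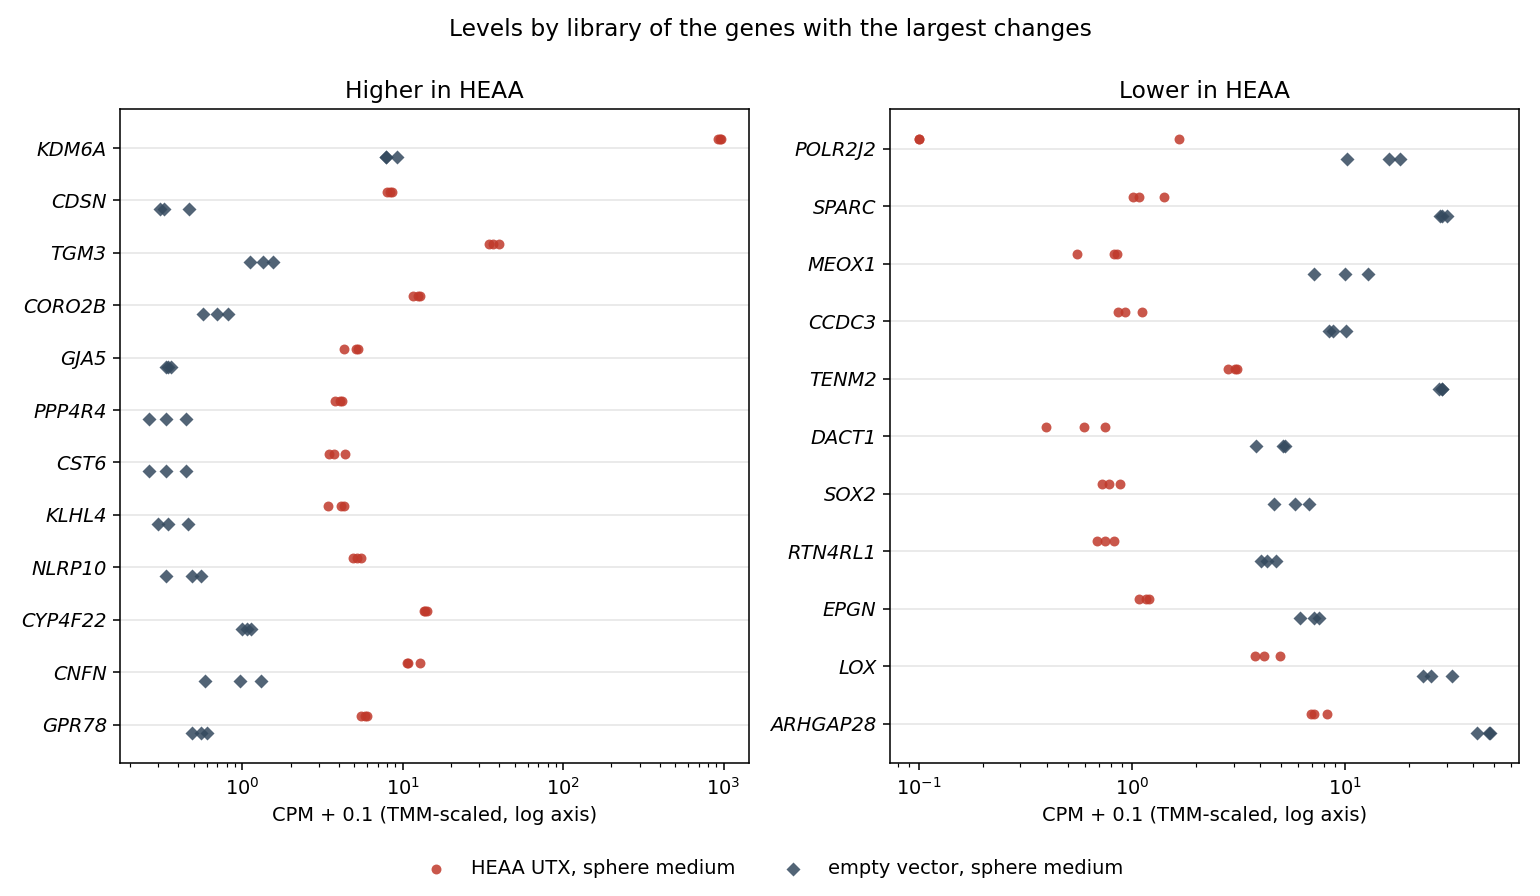
Levels of the 12 genes with the largest rises (left) and 11 of the 12 with the largest falls (right) in HEAA (red circles) against EV (dark diamonds) in sphere medium, as CPM + 0.1 on a log axis, 1 point per library. HEAA and EV libraries do not overlap for any of the 23 genes shown, which the choice of genes required, and POLR2J2 is spread widely within HEAA.

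CDSN, corneodesmosin, which holds the cells of the cornified layer together, had 7.84, 8.53 and 8.28 CPM in HEAA, against 0.367, 0.209 and 0.227 CPM in EV. All HEAA libraries lay far above all EV libraries, a log2 difference of 4.92 ± 0.34 (adjusted p = 1.63e-10). TGM3, a transglutaminase that cross-links cornified envelope proteins, had 39.7, 36.5 and 34.6 CPM in HEAA, against 1.24, 1.01 and 1.46 CPM in EV (4.9 ± 0.11, adjusted p = 6.05e-16). CYP4F22, the omega-hydroxylase that makes the very long fatty acids of skin barrier ceramides, had 13.7, 13.5 and 14.1 CPM in HEAA and 0.901, 0.974 and 1.04 CPM in EV (3.82 ± 0.15, adjusted p = 7.18e-15). CNFN, cornifelin, a cornified envelope protein, had 10.7, 10.5 and 12.8 CPM in HEAA and 0.868, 0.487 and 1.2 CPM in EV (3.72 ± 0.24). Each of these genes is known from the terminal differentiation of skin, and each was tightly grouped among the HEAA libraries.

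The other large rises were in a mix of genes. GJA5, the gap junction protein connexin 40, had 5.17, 4.2 and 5 CPM in HEAA, against 0.234, 0.244 and 0.259 CPM in EV (4.28 ± 0.19, adjusted p = 7.02e-14). CORO2B, an actin-binding coronin, had 12.4, 11.5 and 12.8 CPM in HEAA and 0.467, 0.592 and 0.712 CPM in EV (4.36 ± 0.12). CST6, cystatin E/M, an inhibitor of lysosomal cysteine proteases, had 4.26, 3.65 and 3.38 CPM in HEAA and 0.234, 0.348 and 0.162 CPM in EV (3.93 ± 0.23). All of these groups were apart by far more than their spread. The list was completed by PPP4R4 (3.97), a regulatory subunit of protein phosphatase 4, KLHL4 (3.83), a kelch-like protein, NLRP10 (3.82), a NOD-like receptor family member, and GPR78 (3.65), an orphan G protein-coupled receptor. At EV levels below 1 CPM these fold changes rest on few counts in EV, 24 over its 3 libraries for CDSN.

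SPARC, a secreted glycoprotein that binds collagen, had the largest fall after POLR2J2 among the genes named. It had 0.908, 1.32 and 0.974 CPM in HEAA, against 30.1, 28.4 and 27.7 CPM in EV. The EV libraries were alike and far above HEAA, a log2 difference of -4.79 ± 0.11 (adjusted p = 1.74e-18), or 27.7-fold. LOX, lysyl oxidase, which cross-links collagen, had 4.83, 4.08 and 3.7 CPM in HEAA and 25.1, 31.6 and 23.1 CPM in EV (-2.65 ± 0.14). Teneurin-2 (TENM2), a cell adhesion protein best known from synapses, had 2.96, 2.72 and 3.02 CPM in HEAA and 28.4, 28.3 and 27.5 CPM in EV (-3.26 ± 0.1, adjusted p = 1.12e-16). CCDC3, a secreted protein, fell by 3.37 on the log2 scale.

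Developmental regulators were among the largest falls. MEOX1, a homeobox factor of the embryonic somites, had 0.753, 0.722 and 0.455 CPM in HEAA and 9.92, 12.7 and 7.06 CPM in EV (-3.93 ± 0.29). SOX2, a stem cell transcription factor, had 0.623, 0.679 and 0.779 CPM in HEAA and 5.71, 6.68 and 4.56 CPM in EV (-3.02 ± 0.27, adjusted p = 7.38e-09). The Wnt regulator DACT1 had 0.493, 0.297 and 0.649 CPM in HEAA and 5.01, 5.12 and 3.72 CPM in EV (-3.22 ± 0.27). For each of them every HEAA library lay below every EV library, which the choice of genes required. RTN4RL1 (-2.71), EPGN (-2.71), a ligand of the EGF receptor, and ARHGAP28 (-2.62), a GTPase-activating protein, also fell. POLR2J2 (ENSG00000267645.5) fell by 4.82 on the log2 scale, but this gene shares sequence with near-identical copies and had 0, 0 and 1.56 CPM in HEAA and 10.1, 16 and 18.1 CPM in EV, so its value is uncertain. Without the third HEAA library its log2 difference was -11.78, a fitted value that depends on the prior count because the remaining HEAA libraries are at 0, and a further gene of the same symbol was not called (0.38 ± 0.19).

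To describe the genes by role, 43 gene lists were counted. Among all tested genes 19.9% were called higher in HEAA and 21.5% lower, and the lists are read against these shares, as in the plot of members called. The counts describe the lists only: no test of a list against other genes was made. The lists were not matched in level to all tested genes, and a change is more easily called at high counts.

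**Figure D2:**
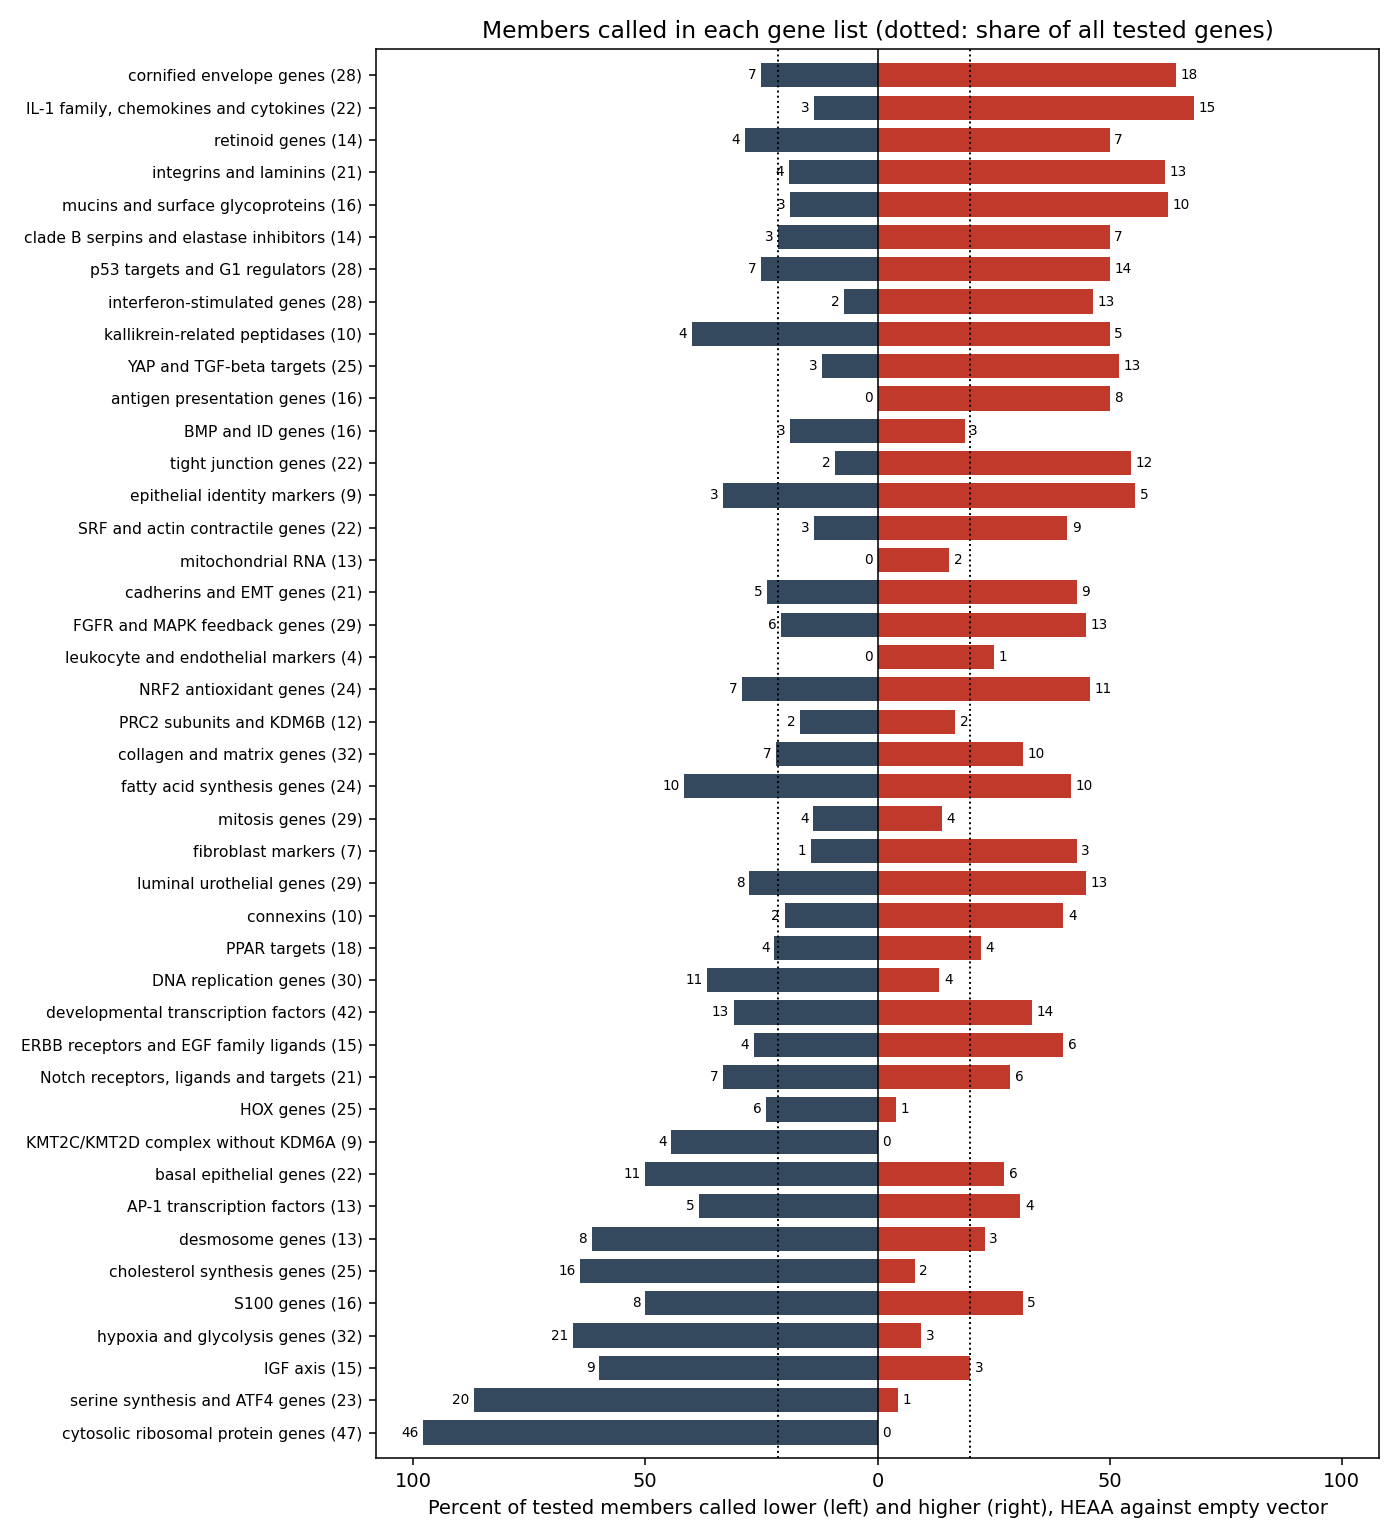
Percent of each list's tested members called higher (red, right) and lower (dark, left) in HEAA against EV in sphere medium, with the number of members called at each bar, the number tested in brackets, and dotted lines at the shares of all tested genes (19.9% higher, 21.5% lower). Cornified envelope genes and the IL-1 and cytokine list have 18 and 15 members higher, and ribosomal protein and ATF4 genes have 46 and 20 members lower.

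Cornified envelope genes split in their direction. Of 28 tested members, 18 were higher in HEAA and 7 lower, with a median log2 fold change of 1.02, and both counts were the same in all 12 alternatives. The higher members included TGM5 (3.34 ± 0.24), SPRR3 (1.53) and IVL, involucrin (1.06), and the last 2 were chosen after their values were seen. IVL, the scaffold of the envelope, averaged 240 CPM in HEAA and 116 CPM in EV. The lower members were led by the suprabasal keratins. KRT1 had 906, 769 and 881 CPM in HEAA, against 3990, 4190 and 4720 CPM in EV, and it fell by 2.34 on the log2 scale (SE 0.08, adjusted p = 1.31e-15). Its partner KRT10 had 1120, 964 and 1080 CPM in HEAA, against 4260, 4320 and 5240 CPM in EV (-2.12 ± 0.07). DSG1, the desmosomal cadherin of differentiated layers, had 90.9, 87.7 and 89.1 CPM in HEAA, against 296, 305 and 339 CPM in EV (-1.81 ± 0.05), and KRTDAP fell by 0.75. CDSN, TGM3 and SPRR3 thus lay above EV, and KRT1, KRT10 and DSG1 below it, in the same libraries. CRNN and KPRP did not pass the count filter. SPRR2 genes are near-identical copies, and their separate values are uncertain. In bulk RNA, fewer cells of a kind and less RNA per cell cannot be told apart.

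**Figure D3:**
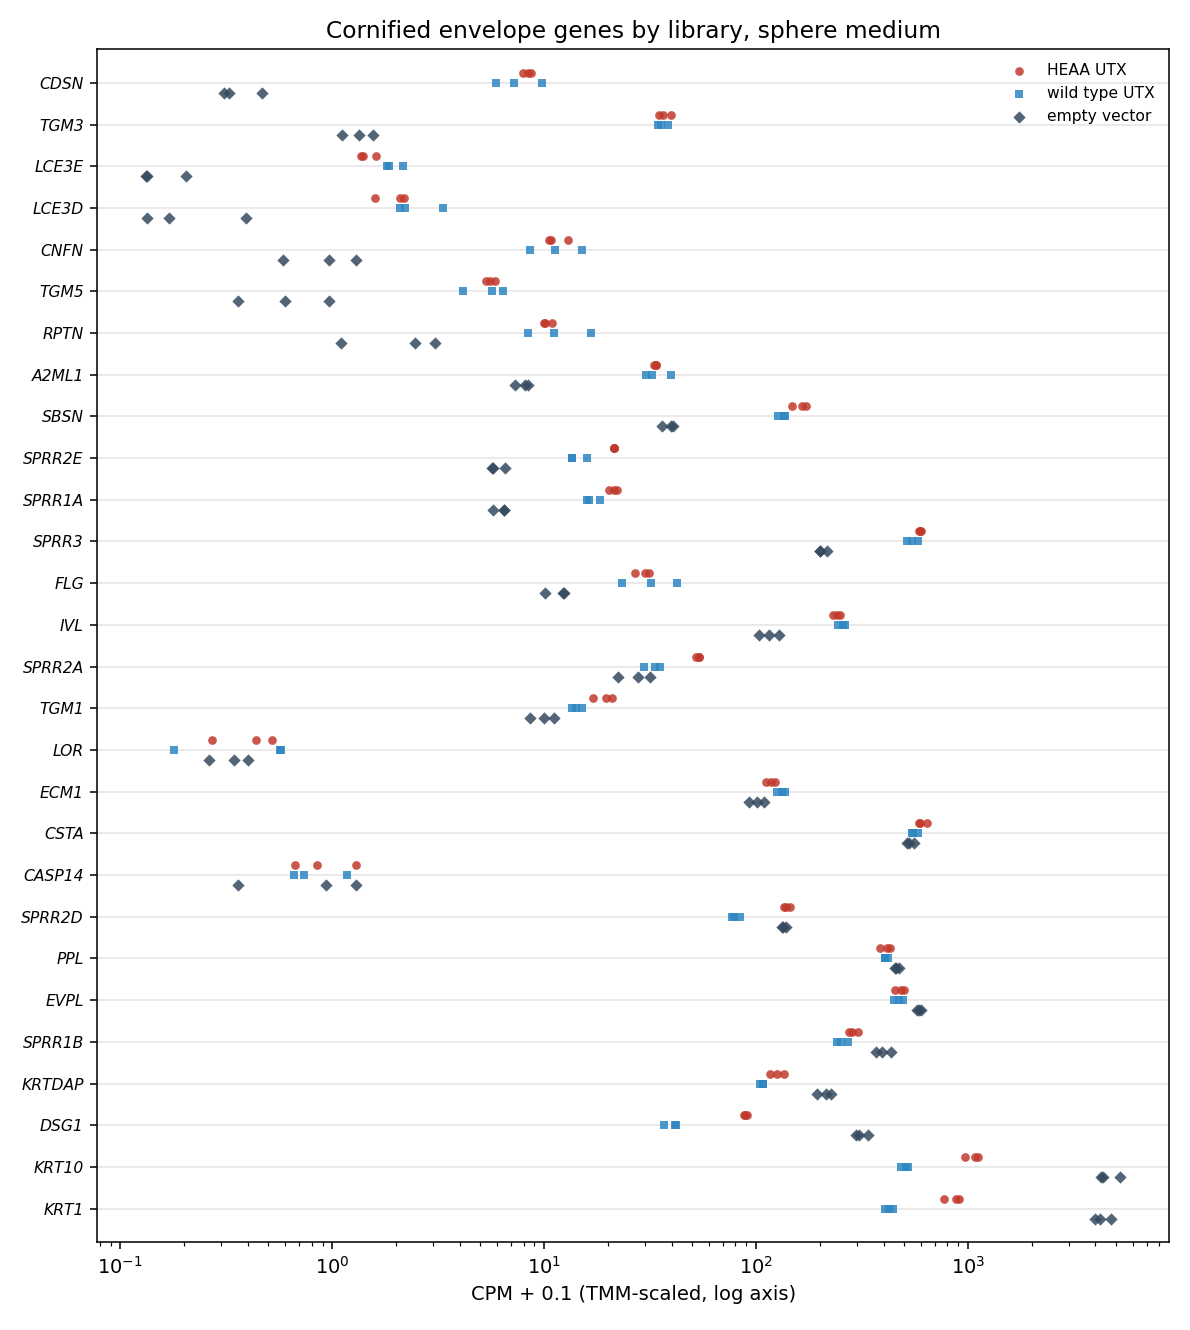
Levels of the 28 tested cornified envelope genes by library in HEAA (red circles), wild type UTX (blue squares) and EV (dark diamonds) in sphere medium, as CPM + 0.1 on a log axis, ordered by the log2 fold change of HEAA against EV. CDSN and TGM3 at the top have HEAA libraries at 7.84 to 8.53 and 34.6 to 39.7 CPM, far above EV, while for KRT1 and KRT10 at the bottom EV lies highest, wild type UTX lowest and HEAA between them.

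Basal genes were more often lower: of 22 tested, 6 were higher in HEAA and 11 lower (median -0.11). KRT5, the main keratin of basal cells, had 6220, 5890 and 5890 CPM in HEAA, against 12800, 11900 and 12800 CPM in EV (-1.06 ± 0.05, adjusted p = 1.9e-13). Its partner KRT14 had 643, 584 and 613 CPM in HEAA, against 1420, 1280 and 1280 CPM in EV (-1.11 ± 0.04). PKP1, a desmosomal plaque protein, fell by 0.61. The members that rose included LAMA3 (1.4 ± 0.07) and LAMB3 (0.91 ± 0.08), chains of a laminin that anchors basal cells to the basement membrane. LAMA3 had 362, 369 and 365 CPM in HEAA, against 149, 142 and 127 CPM in EV, with no overlap. KRT6B (0.65) and KRT6C (-0.69) are near-identical to KRT6A, and their values are uncertain.

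Luminal urothelial genes were higher for 13 of 29 tested and lower for 8, with a median of 0. PSCA, a surface antigen of urothelium, had 11.9, 11.1 and 10.6 CPM in HEAA, against 2.14, 2.12 and 1.04 CPM in EV (2.68 ± 0.14, adjusted p = 1.11e-12). UPK2, a uroplakin of the urothelial plaque, had 5.45, 5.52 and 4.87 CPM in HEAA, against 2.1, 2.47 and 2.23 CPM in EV (1.22 ± 0.12). The epithelial transcription factor ELF3 rose by 1.24 and the keratin KRT4 by 2.24. Other luminal regulators were lower: GATA3 had 30.4, 28.4 and 28.9 CPM in HEAA, against 46.7, 46.2 and 44.9 CPM in EV (-0.65 ± 0.04), and KLF5 fell by 0.47. KRT13, a keratin of intermediate cells, fell by 1.38 to 2660, 2410 and 2470 CPM in HEAA, against 6550, 6330 and 6710 CPM in EV. UPK3A did not pass the filter.

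Among S100 genes, calcium-binding proteins that include antimicrobial alarmins, 5 of 16 were higher in HEAA and 8 lower (median -0.22). S100A7, psoriasin, had 17, 17.8 and 16.8 CPM in HEAA, against 2.34, 1.57 and 1.75 CPM in EV (3.18 ± 0.2), and its near-identical copies make the value uncertain. S100A8 (0.52 ± 0.06) and S100A9 (0.29 ± 0.04), the subunits of calprotectin, rose slightly, while S100A4 (-0.95) and S100A13 (-0.63) fell. Clade B serpins and elastase inhibitors were higher for 7 of 14 and lower for 3 (median 0.3). The elastase inhibitors SLPI (1.09 ± 0.05) and PI3 (0.99 ± 0.07) rose, with SLPI at 237, 231 and 222 CPM in HEAA, against 107, 104 and 113 CPM in EV. SERPINB13 had 117, 125 and 120 CPM in HEAA, against 467, 515 and 470 CPM in EV, and fell by 2 on the log2 scale (SE 0.06). Of 10 kallikrein-related peptidase genes 5 were higher and 4 lower (median 0.23). The protease KLK6 had 15.4, 14.9 and 15.1 CPM in HEAA, against 2.27, 2.12 and 3.53 CPM in EV (2.51 ± 0.1), while the kallikrein inhibitor SPINK5 fell by 1.09.

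Desmosome genes were lower for 8 of 13 and higher for 3 (median -0.17), with desmoplakin (DSP) at 2620, 2670 and 2610 CPM in HEAA, against 3710, 3820 and 3750 CPM in EV (-0.51 ± 0.03). DSG2, the desmosomal cadherin found in simple epithelia, rose, with 562, 602 and 572 CPM in HEAA, against 340, 339 and 316 CPM in EV (0.8 ± 0.04). Tight junction genes were higher for 12 of 22 and lower for 2 (median 0.18). The scaffold protein TJP3 had 10.8, 8.7 and 9.51 CPM in HEAA, against 3.14, 2.68 and 1.49 CPM in EV (2 ± 0.15), and MARVELD3 fell by 0.76. Of 10 connexin genes 4 were higher and 2 lower (median -0.01). Connexin 43 (GJA1) had 4.72, 4.33 and 3.8 CPM in HEAA, against 0.401, 0.418 and 0.259 CPM in EV (3.57 ± 0.23), and the epidermal connexin GJB6 had 828, 837 and 841 CPM in HEAA, against 1720, 1820 and 1800 CPM in EV (-1.09 ± 0.03).

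Integrin and laminin genes were higher for 13 of 21 and lower for 4 (median 0.38). ITGB6, the partner of integrin alpha V on epithelia, had 63.8, 68.2 and 66.7 CPM in HEAA, against 29.3, 31.5 and 26.7 CPM in EV (1.18 ± 0.07), and ITGA1 rose by 1.1. LAMA5 (-0.3), LAMB1 (-0.26) and ITGB8 (-0.66) fell. Collagen and matrix genes were higher for 10 of 32 and lower for 7 (median 0.02). Thrombospondin-1 (THBS1) had 96.6, 95.2 and 87.9 CPM in HEAA, against 12.7, 11.1 and 8.45 CPM in EV (3.12 ± 0.1, adjusted p = 4.42e-16). Tenascin-C (TNC) had 33.6, 33 and 31 CPM in HEAA, against 7.68, 7.31 and 6.86 CPM in EV (2.16 ± 0.06). COL12A1, a collagen that binds to fibril surfaces, had 45.3, 44.1 and 43.4 CPM in HEAA, against 181, 179 and 158 CPM in EV (-1.96 ± 0.06). Of SRF and actin genes 9 of 22 were higher and 3 lower (median 0.14). Moesin (MSN), which ties actin to the membrane, had 72.5, 72.5 and 75.2 CPM in HEAA, against 7.71, 7.62 and 7.25 CPM in EV (3.29 ± 0.05, adjusted p = 4.86e-21), and TPM1 fell by 0.55. Among cadherin and EMT genes 9 of 21 were higher and 5 lower (median 0.09), and fibronectin (FN1, 1.39), CDH3 (0.54) and CDH1 (0.39) all rose. Mucins and surface glycoproteins were higher for 10 of 16 and lower for 3 (median 0.31). CEACAM6 had 28.4, 30 and 26.7 CPM in HEAA, against 3.07, 3.17 and 2.82 CPM in EV (3.23 ± 0.08), a value that near-identical CEACAM genes make uncertain, and the surface protein CD9 fell by 0.35.

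Growth factor genes were read against a medium that itself contained EGF and FGF2. Of 15 ERBB receptor and EGF family genes 6 were higher in HEAA and 4 lower (median -0.07). The ligand TGFA had 103, 112 and 105 CPM in HEAA, against 35.3, 34.9 and 30.9 CPM in EV (1.66 ± 0.05, adjusted p = 6.05e-16). HBEGF (0.91 ± 0.05) and EREG (0.89 ± 0.05), also ligands of the EGF receptor, rose, the receptor EGFR fell by 0.3, and ERBB2 rose by 0.45. FGFR and MAPK feedback genes were higher for 13 of 29 and lower for 6 (median 0.09). The receptors moved apart: FGFR2 had 82.8, 76.6 and 79.3 CPM in HEAA, against 43.5, 40.9 and 39.3 CPM in EV (0.95 ± 0.05), while FGFR3 had 166, 152 and 159 CPM in HEAA, against 261, 259 and 245 CPM in EV (-0.68 ± 0.04, adjusted p = 1.73e-11). FGFR4 fell by 1.19. The ERK phosphatase DUSP4 rose by 0.89 and cyclin D1 (CCND1) by 1.04, and the feedback inhibitor SPRY1 fell by 0.51.

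The IGF axis was lower for 9 of 15 tested genes and higher for 3 (median -0.37). IGF2, a growth factor and imprinted gene, had 3990, 3720 and 3800 CPM in HEAA, against 13200, 12500 and 13600 CPM in EV (-1.77 ± 0.04, adjusted p = 2.62e-19). IGFBP6, the binding protein that prefers IGF2, had 20.6, 18.3 and 20.7 CPM in HEAA, against 109, 103 and 110 CPM in EV (-2.43 ± 0.05). Ligand and binding protein thus fell together, with no overlap between the groups, while IGFBP7 (0.81) and the receptor IGF2R (0.3) rose.

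YAP and TGF-beta targets were higher for 13 of 25 and lower for 3 (median 0.22). NT5E, the surface nucleotidase CD73, had 210, 219 and 221 CPM in HEAA, against 57.9, 61.6 and 53.5 CPM in EV (1.91 ± 0.05). AXL, a receptor tyrosine kinase, rose by 1.71, while the activin subunit INHBA (-1.9) and CCN1 (-0.61) fell. Of 16 BMP and ID genes 3 were higher and 3 lower (median 0.19): BMP7 rose by 1.15 and the BMP and activin antagonist FST fell by 1.28. Of 21 Notch genes 6 were higher and 7 lower (median -0.1), with the glycosyltransferase LFNG (1.2) and the ligand DLL1 (0.85) higher and the target HEY1 (-0.84) and the receptor NOTCH3 (-0.54) lower. Of 13 AP-1 genes 4 were higher and 5 lower (median -0.13). FOSL1 rose by 0.64. Without the first EV library 2 AP-1 genes were lower in HEAA, and without the third EV or the third HEAA library 3 were.

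Most genes of amino acid supply were lower. They belong to the serine synthesis pathway and to the program of ATF4, a transcription factor that amino acid shortage and endoplasmic reticulum stress induce. Of 23 tested, 20 were lower in HEAA and 1, the cystine transporter SLC7A11 (0.3 ± 0.06), was higher, with a median of -0.38, and the lower count was 17 to 20 in all 12 alternatives. PHGDH, the first enzyme of serine synthesis, had 133, 121 and 129 CPM in HEAA, against 351, 320 and 362 CPM in EV (-1.43 ± 0.05, adjusted p = 4.87e-15). ASNS, asparagine synthetase, had 164, 177 and 165 CPM in HEAA, against 270, 252 and 297 CPM in EV (-0.7 ± 0.07). CHAC1, a glutathione-degrading enzyme, had 7.81, 6.96 and 7.66 CPM in HEAA, against 10.6, 12 and 13.4 CPM in EV (-0.68 ± 0.11). HEAA lay below EV without overlap for each of the 3, and CBS fell by 0.71. ATF4 itself averaged 471 CPM in HEAA and 570 CPM in EV and fell by 0.28. This gene was chosen after its value was seen.

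Promoter sequence of ASNS and CHAC1 is printed because both hold the letters TGATGNAA, a form of the ATF4 response element, here in capitals. The sequences are from RefSeq on GRCh38.p14, written 5′ to 3′ on the strand of the gene. The ASNS stretch, the 120 bases next to the start, is chr7:97872409-97872528 (minus strand). The CHAC1 stretch, 120 bases that begin 250 bases before the start, is chr15:40953221-40953340 (plus strand), and its match is on the opposite strand.
ASNS: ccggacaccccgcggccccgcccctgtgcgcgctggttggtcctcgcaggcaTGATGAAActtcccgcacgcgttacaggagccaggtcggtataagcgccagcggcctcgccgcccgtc
CHAC1: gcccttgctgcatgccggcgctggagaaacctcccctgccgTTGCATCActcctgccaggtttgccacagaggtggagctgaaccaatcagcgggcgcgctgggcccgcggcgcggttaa
Both strands of the 250 bases before the start were searched. Of the 19 promoters of the list that were in the RefSeq table, 3 held the letters (15.8%), against 870 of all 27305 promoters (3.19%). The third was FGF21, which did not pass the count filter and so was not among the tested genes of the list. Of 18 promoters of cholesterol synthesis genes 0 held them. The letters TCACNCCAC, a form of the sterol regulatory element, were in 1 of those 18 promoters (5.56%, SREBF2) and in 239 of all 27305 (0.875%). A match of letters is a description of the sequence and not a measured binding site. The list was written from genes known for the ATF4 program, so its share of matches says nothing about the differences between HEAA and EV.

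Cholesterol synthesis genes were lower for 16 of 25 and higher for 2, TM7SF2 (0.55) and MSMO1 (0.15), with a median of -0.18. The falls included LSS, lanosterol synthase, with 220, 190 and 206 CPM in HEAA, against 336, 324 and 333 CPM in EV (-0.69 ± 0.05). The sterol sensor INSIG1 (-0.59 ± 0.04) and ACAT2 (-0.48 ± 0.04) fell as well. Of 24 fatty acid genes 10 were higher and 10 lower (median 0.02). DGAT2, which makes triglycerides, had 30.5, 23.1 and 28.3 CPM in HEAA, against 3.64, 2.82 and 4.4 CPM in EV (2.92 ± 0.12). The desaturase SCD had 1480, 1560 and 1470 CPM in HEAA, against 2400, 2490 and 2470 CPM in EV (-0.71 ± 0.04), and the regulator SREBF1 fell by 0.63. PPAR targets were higher for 4 of 18 and lower for 4 (median -0.04), with FABP4 (0.87) and CPT1A (0.78) higher and PLIN2 (-0.68) lower. Without the second EV library 2 PPAR targets were lower, as without the second or the third HEAA library, and all 12 alternatives gave 2 to 4. Retinoid genes were higher for 7 of 14 and lower for 4 (median 0.39). CRABP2, a carrier of retinoic acid, had 50.6, 49.4 and 52.4 CPM in HEAA, against 17.5, 14.7 and 10.6 CPM in EV (1.84 ± 0.1). TGM2 rose by 1.09. Of 24 NRF2 antioxidant genes 11 were higher and 7 lower (median 0.08): GCLM, a subunit of the glutathione-making ligase, rose by 0.7, and its partner GCLC fell by 0.44.

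Hypoxia and glycolysis genes were lower for 21 of 32 and higher for 3 (median -0.24), and without the second EV library 17 were lower and 4 higher. The glucose transporter SLC2A3 had 4.28, 4.5 and 3.77 CPM in HEAA, against 12.8, 19.2 and 12.2 CPM in EV (-1.82 ± 0.22). ALDOC, a glycolytic aldolase, had 40, 36.1 and 36.2 CPM in HEAA, against 77.3, 83.4 and 64.5 CPM in EV (-1 ± 0.07), and the oxygen sensor EGLN3 fell by 1.11. CA9, carbonic anhydrase 9, had 0.467, 0.552 and 0.714 CPM in HEAA, against 2.5, 12.9 and 0.486 CPM in EV. Its groups overlapped, and its fall of 3.19 (adjusted p = 0.00243) was -1.36 without the second EV library (adjusted p = 0.112). The related enzyme CA12 rose by 1.38, with 178, 171 and 182 CPM in HEAA, against 66.6, 71 and 65.8 CPM in EV.

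Cytosolic ribosomal protein genes were lower for 46 of 47 tested and higher for 0, with a median of -0.42. RPL3 had 1340, 1260 and 1310 CPM in HEAA, against 1980, 1960 and 2020 CPM in EV (-0.6 ± 0.04), and RPS6 had 974, 1020 and 975 CPM in HEAA, against 1460, 1420 and 1460 CPM in EV (-0.55 ± 0.04). The lower count was 45 to 47 in all 12 alternatives, and many of these genes have pseudogenes that can share reads. Mitochondrial RNA was higher for 2 of 13 genes and lower for 0 (median 0.09), with 2.63% to 3.18% of counts in HEAA and 2.61% to 2.9% in EV. Without the second EV library 1 of them was higher, as without the first EV or the second HEAA library, 4 were higher without the third EV or the third HEAA library, and all 12 alternatives gave 1 to 5.

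Of 22 tested genes of the IL-1 family, chemokines and cytokines, 15 were higher in HEAA and 3 lower, with a median of 0.74. IL1RN, the antagonist of the IL-1 receptor, had 22.5, 24.3 and 24.4 CPM in HEAA, against 3.37, 4.56 and 2.56 CPM in EV (2.77 ± 0.12, adjusted p = 3.92e-14). CXCL8, the neutrophil attractant interleukin-8, had 10.8, 13 and 11.6 CPM in HEAA, against 3.24, 2.99 and 3.27 CPM in EV (1.89 ± 0.15). IL36RN, an antagonist of IL-36, rose by 1.68 and LIF by 1.48, while IL18 fell by 0.48. The list also held SOD2, a superoxide dismutase and not a cytokine, which fell by 0.37 and is counted among the 3 lower. Interferon-stimulated genes were higher for 13 of 28 and lower for 2 (median 0.24). The factor IRF1 had 20.7, 22.3 and 22.5 CPM in HEAA, against 11.1, 11.3 and 9.39 CPM in EV (1.04 ± 0.06), and OAS2 fell by 0.45. Antigen presentation genes were higher for 8 of 16 and lower for 0 (median 0.21), among them the class I regulator NLRC5 (0.88) and the peptide transporter TAP2 (0.5).

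Differences were small among genes of the complexes that UTX belongs to or opposes. Of 9 other subunits of the KMT2C and KMT2D complexes 4 were lower and 0 higher (median -0.11). KMT2C had 113, 117 and 112 CPM in HEAA, against 137, 151 and 140 CPM in EV (-0.32 ± 0.05), PAXIP1 fell by 0.26, and KMT2D and WDR5 each fell by 0.17. The call of KMT2D was lost without the third EV library (adjusted p = 0.0539) and without the second HEAA library (-0.11, adjusted p = 0.146). Log2 differences were 0.1 for ASH2L, 0.08 for NCOA6, 0.06 for RBBP5, -0.08 for DPY30 and -0.11 for PAGR1, none of them called, though NCOA6 was called with upper-quartile factors (adjusted p = 0.0403) and PAGR1 without the first HEAA library (0.0388). Of 12 tested PRC2 genes and KDM6B 2 were higher and 2 lower (median 0.02). The methyltransferase EZH2 had 67.2, 71.1 and 66.7 CPM in HEAA, against 81.9, 73.3 and 86.3 CPM in EV (-0.24 ± 0.05), and PHF1 fell by 0.18, a call lost with no count filter (adjusted p = 0.08), without the first EV library (0.063) and without the third HEAA library (0.0501). EZH1 rose by 0.21, a call lost without the first EV library (adjusted p = 0.0583). EED rose by 0.1, a call lost with no count filter (adjusted p = 0.068), with a replicate block (0.05), without the third EV library (0.0624) and without the first HEAA library (0.0578). KDM6B, the other H3K27 demethylase, had 59.2, 53.2 and 56.3 CPM in HEAA, against 57.9, 55.4 and 54 CPM in EV, and was not called. SUZ12 (0.05), RBBP4 (0.06), RBBP7 (0.05), JARID2 (-0.01), AEBP2 (0.02), MTF2 (-0.12) and PHF19 (-0.04) were not called either, though RBBP4 and MTF2 were each called under 2 of the 12 alternatives.

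HOX genes, classic Polycomb targets, were higher for 1 of 25, lower for 6 and not called for 18 (median -0.11). HOXD8 (-0.59), HOXA10 (-0.34) and HOXA11 (-0.33) fell. A further 14 listed HOX genes did not pass the count filter. Other developmental transcription factors were higher for 14 of 42 and lower for 13 (median -0.07). FOXD1 had 10.9, 8.28 and 10 CPM in HEAA, against 3.57, 2.96 and 2.4 CPM in EV (1.72 ± 0.13), and GATA2 had 6.57, 6.41 and 6.82 CPM in HEAA, against 2.5, 2.05 and 1.75 CPM in EV (1.65 ± 0.1). Beside MEOX1 and SOX2, BARX2 fell by 1.23 to 33.3, 32.9 and 32.1 CPM in HEAA, against 78.2, 71.6 and 81.1 CPM in EV, and SIX2 fell by 1.08.

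Genes of p53 and of the G1 phase were higher for 14 of 28 and lower for 7 (median 0.25). The cell cycle inhibitor CDKN1A had 202, 194 and 198 CPM in HEAA, against 97.3, 96.3 and 87.5 CPM in EV (1.08 ± 0.05, adjusted p = 6.51e-14), and the stress cytokine GDF15 rose by 1.48. CDKN2B (-0.66), CDKN1B (-0.32) and CDK4 (-0.27) fell, and without the first EV library 4 members were lower. Mitosis genes were close to EV: of 29 tested 4 were higher and 4 lower, with a median of 0.01. AURKA, a spindle kinase, rose by 0.44 (SE 0.04), and KIF20A, a kinesin of cell division, fell by 0.26 (SE 0.05). With other size factors 6 or 7 were higher. DNA replication genes were higher for 4 of 30 and lower for 11 (median -0.07), with the clamp loader subunit RFC4 at 0.23 and the licensing factor CDT1 at -0.45.

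The mutant was next set against wild type UTX in the same medium. These were different cell populations, and their KDM6A levels differed too. An effect of the replaced residues cannot be told apart from other differences between the populations. The HEAA libraries are the same ones, so these values are not independent of those above. In HEAA 3931 genes were called against UTX (20.0%): 2189 were higher (11.2%) and 1742 lower (8.87%), and 102 (0.520%) and 87 (0.443%) were so by at least 2-fold. The libraries of HEAA and UTX did not overlap for 34.9% of genes. Without the second UTX library 998 genes were lower. Against EV, 9504 genes were called in UTX (48.4%), 4477 higher (22.8%) and 5027 lower (25.6%), of them 1195 (6.09%) and 523 (2.66%) by at least 2-fold. The groups did not overlap for 54.6%, with UTX higher for 25.8%.

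Nearly all mitosis genes were higher in HEAA than in wild type UTX. Of 29 mitosis genes 27 were higher in HEAA than in UTX and 0 lower (median 0.21), and 24 to 29 were higher in all 12 alternatives. TOP2A, a DNA topoisomerase of dividing cells, had 549, 584 and 543 CPM in HEAA and averaged 470 CPM in UTX and 612 CPM in EV. CDC20, which activates the anaphase-promoting complex, had 167, 150 and 159 CPM in HEAA and averaged 131 CPM in UTX and 176 CPM in EV. For both genes the HEAA mean lay between those of UTX and EV, and HEAA exceeded UTX by 0.25 and 0.28. Both were among the 4 mitosis genes called lower in HEAA than in EV, while 4 were higher and 21 were not called. Those 2 calls were lost under several alternatives (adjusted p up to 0.114 for TOP2A and 0.177 for CDC20). MAD2L1 averaged 69.3 CPM in HEAA, 56.3 CPM in UTX and 67.2 CPM in EV, and MKI67 averaged 460, 432 and 446 CPM. In the comparison of UTX with EV, which shares libraries with both others, 2 of the 29 were higher in UTX and 22 lower (median -0.2). DNA replication genes were higher in HEAA than in UTX for 21 of 30 and lower for 0 (median 0.2), and in UTX against EV 1 was higher and 23 lower.

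The means of several differentiation genes lay between those of UTX and EV. KRT1 averaged 852 CPM in HEAA, 423 CPM in UTX and 4300 CPM in EV, and KRT10 averaged 1060 CPM in HEAA, 505 CPM in UTX and 4610 CPM in EV. DSG1 had 90.9, 87.7 and 89.1 CPM in HEAA, against 36.9, 41.2 and 41.7 CPM in UTX, a difference of 1.16. Cornified envelope genes were higher in HEAA than in UTX for 11 of 28 and lower for 1 (median 0.11), whereas TGM3 (0.04) and CDSN (0.12) were not called. Desmosome genes were higher for 7 of 13 and lower for 1. Serine synthesis and ATF4 genes were higher for 11 of 23 and lower for 1, with ASNS at 164, 177 and 165 CPM in HEAA, against 116, 90.3 and 111 CPM in UTX (0.67, adjusted p = 1.42e-06). OAS2 had 73.4, 74.1 and 74.1 CPM in HEAA, against 39, 35.9 and 38.7 CPM in UTX.

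Other lists had more members lower in HEAA than in UTX. Luminal urothelial genes were lower in HEAA than in UTX for 15 of 29 and higher for 5 (median -0.19), including UPK2 (-0.72), ELF3 (-0.69) and PSCA (-0.66), all of which lay above EV. Integrin and laminin genes were lower for 11 of 21 and higher for 1 (median -0.21), with ITGB6 at -0.4. Without the second UTX library 7 were lower. Tight junction genes were lower for 9 of 22 and higher for 1, but 2 to 5 were lower without any 1 of the HEAA libraries or without the first or the second UTX library. The plot of list members shows these 3 comparisons side by side.

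**Figure D4:**
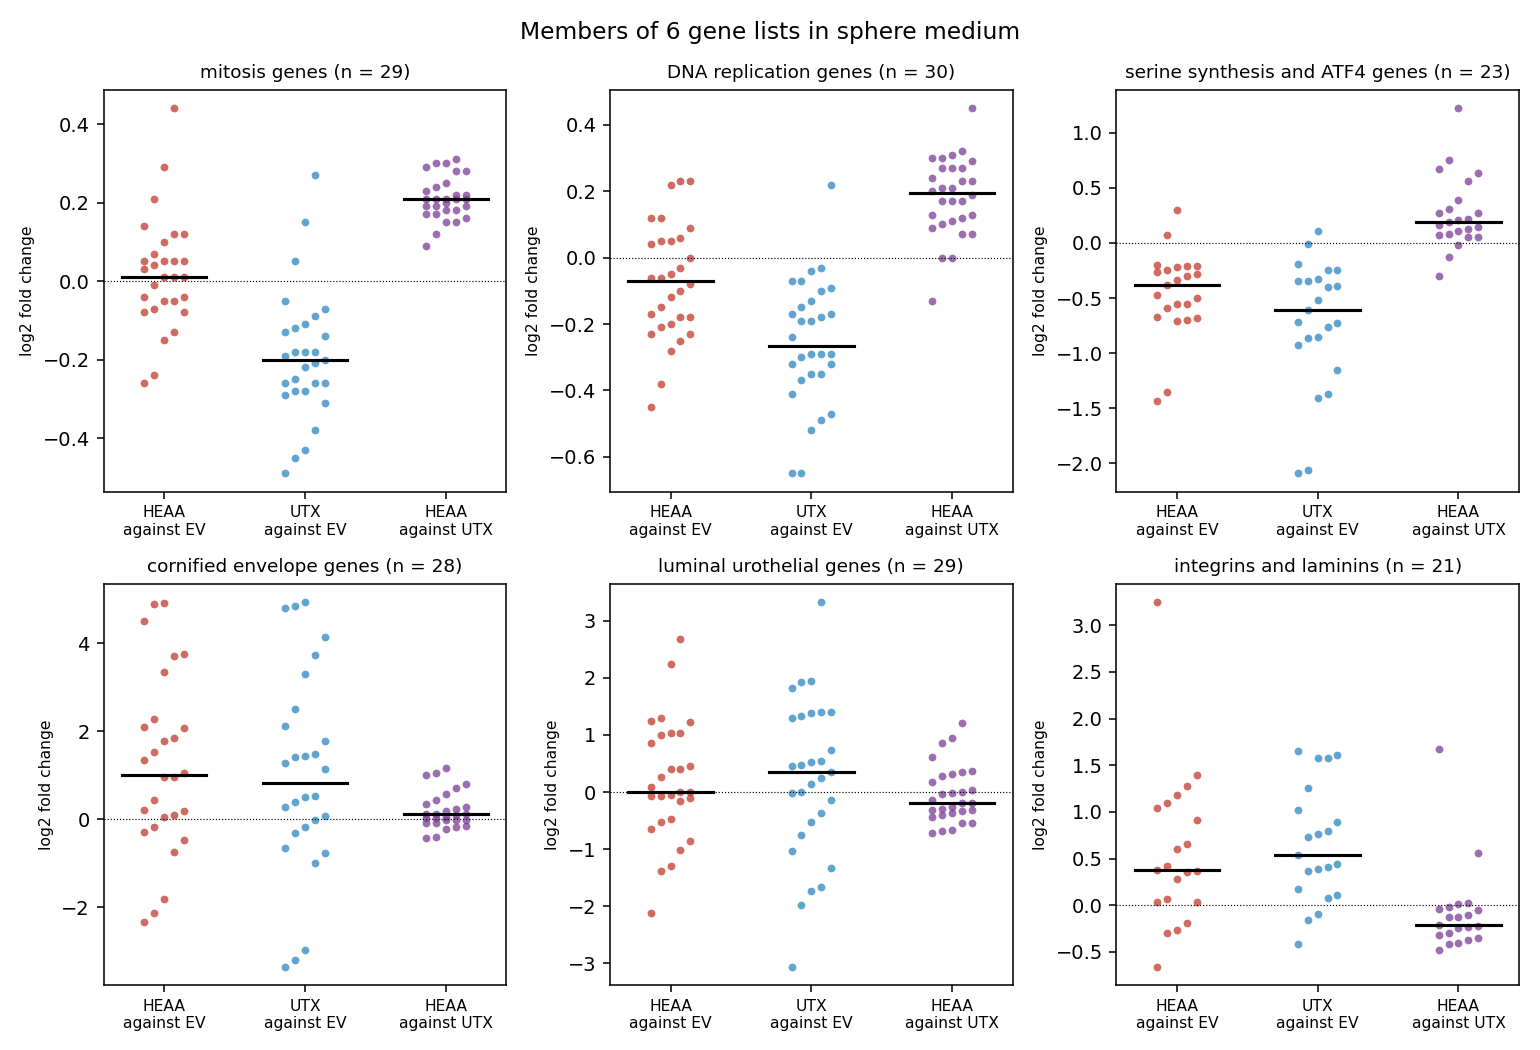
Log2 fold changes of the members of 6 gene lists in HEAA against EV (red), UTX against EV (blue) and HEAA against UTX (purple) in sphere medium, 1 point per gene with the median as a bar. The comparisons share libraries. Mitosis genes have a median of 0.01 in HEAA against EV, -0.2 in UTX against EV and 0.21 in HEAA against UTX.

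Among single genes, CPE, carboxypeptidase E, which processes peptide hormones, had 7.63, 7.39 and 6.62 CPM in HEAA, against 1.99, 2.26 and 2.5 CPM in UTX (1.68 ± 0.14, adjusted p = 3.13e-08), with 4.87, 4.59 and 4.08 CPM in EV. FHL1, a LIM domain protein, had 7.76, 8.45 and 9.16 CPM in HEAA and 2.74, 3.03 and 2.28 CPM in UTX (1.65 ± 0.12), with 8.25, 7.86 and 7.51 CPM in EV. HEAA and EV overlapped for FHL1, and it was not called between them (0.1 ± 0.1). CACNA1H (1.61), a calcium channel, SIDT1 (1.56) and CCN3 (1.49) were also higher. RGPD5 (1.59) belongs to a family of near-identical genes and is uncertain, and without the third HEAA library its difference was 1.38 (adjusted p = 0.0504).

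MUC16, a large membrane mucin, had 20.1, 23.7 and 22 CPM in HEAA, against 63.3, 58.7 and 63.4 CPM in UTX (-1.5 ± 0.12, adjusted p = 1.48e-08), with 21.5, 28 and 18.2 CPM in EV. HEAA and EV overlapped for this gene, and UTX stood above both. GJA5 had 5.17, 4.2 and 5 CPM in HEAA, against 11.1, 13.5 and 12.3 CPM in UTX (-1.34 ± 0.08). IGFBP3 (-1.21), SLC1A6 (-1.14), a glutamate transporter, and TNXB (-1.08), tenascin-X, were lower too. LOXL2, a lysyl oxidase-like enzyme, had 1.19, 1.27 and 1.43 CPM in HEAA, against 2.74, 8.92 and 3.14 CPM in UTX (-1.92 ± 0.58, adjusted p = 0.0216). Its difference was -1.16 without the second UTX library (adjusted p = 0.227), and it was also lost without any 1 of the HEAA libraries.

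The same comparison in full medium came from other libraries. There 9529 genes were called (48.5%), 4554 higher in HEAA than in EV (23.2%) and 4975 lower (25.3%), of them 989 (5.04%) and 328 (1.67%) by at least 2-fold. The groups did not overlap for 58.5% of genes. Of the genes higher in sphere medium 53.4% were also higher in full medium, 2087 genes that make up 45.8% of the full-medium list. Lower in both were 2348 genes, 55.7% of the sphere list and 47.2% of the full-medium list. Opposite directions were called for 515 genes higher in sphere and lower in full medium and for 434 lower in sphere and higher in full medium. The interaction, the log2 fold change in sphere medium minus that in full medium, was called for 6481 genes (33.0%), 3678 positive (18.7%) and 2803 negative (14.3%), of them 533 (2.72%) and 559 (2.85%) by at least 2-fold.

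**Figure D5:**
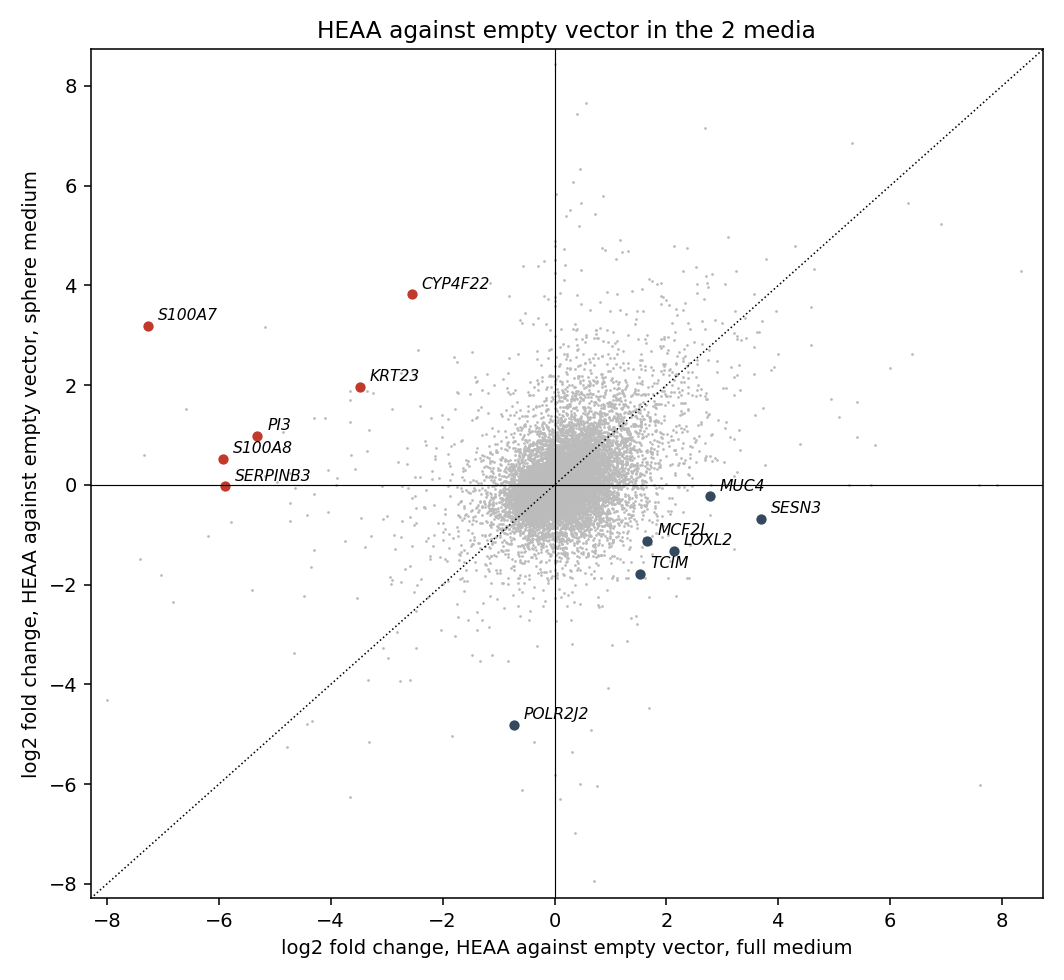
Log2 fold change of HEAA against EV in sphere medium (vertical axis) and in full medium (horizontal axis), 1 grey point per tested gene, with the 6 largest positive (red) and 6 largest negative (dark) interactions named and equality dotted. S100A7 lies at 3.18 in sphere and -7.26 in full medium, a fitted value against 0 counts in HEAA, and SESN3 at -0.68 in sphere and 3.69 in full medium.

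Genes of the skin barrier and its inflammation led the positive interactions. S100A7 had 0 counts in the 3 HEAA libraries of full medium, against 66 in EV. With 3 counts over the group as the floor, HEAA was at least 18.7-fold lower there, whereas in sphere medium it was 9.06-fold higher in HEAA, a fitted interaction of 10.45 ± 0.93 (adjusted p = 1.65e-07), whose size depends on the prior count and is no bound. S100A8 had 0.212, 0.476 and 0.318 CPM in HEAA, against 21.8, 22 and 17.9 CPM in EV, in full medium, and its interaction was 6.44 ± 0.17 (adjusted p = 9.29e-17). PI3 had 0.0706, 0.366 and 0.0636 CPM in HEAA, against 7.58, 6.8 and 5.51 CPM in EV, in full medium, where it was lower in HEAA, while it rose in sphere medium. Its interaction of 6.3 was 7.54 without the second HEAA library of full medium. SERPINB3 had 81.2, 83.5 and 81.1 CPM in HEAA, against 81.3, 84.2 and 86 CPM in EV, in sphere medium. It was not called there, but in full medium SERPINB3 had 0, 0 and 0.191 CPM in HEAA, against 4.07, 4.6 and 4.24 CPM in EV. Its interaction of 5.85 was 9.98 without the third HEAA library of full medium, which leaves HEAA at 0 there and makes that fitted value depend on the prior count. SERPINB3 and SERPINB4 are near-identical, and the value is uncertain. CYP4F22 had 1 count in HEAA and 9 in EV in full medium, a ratio of 0.131 with a 95% counting interval of 0.00299 to 0.945. Its fitted interaction of 6.37 was 8.29 without the second HEAA library of full medium, which leaves HEAA at 0 there, so that it depends on the prior count. TGM3 had 0 counts in both full-medium groups, so no fold can be given there. Clade B serpins and elastase inhibitors had a positive interaction for 11 of 14 genes and a negative one for 0. Cornified envelope genes had a positive one for 15 of 28 and a negative one for 3.

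KRT1 fell in both media, by 2.34 in sphere and by 6.81 in full medium, where it had 0.0706, 0.732 and 0.445 CPM in HEAA, against 46.4, 49.5 and 44.4 CPM in EV. For DSG1 3 counts in HEAA stood against 517 in EV in full medium, a ratio of 0.00684 (0.00141 to 0.0201). SPARC fell in both, by 4.79 in sphere and by 4.43 in full medium, and its interaction of -0.36 was not called (adjusted p = 0.121). TENM2 fell by 3.26 in sphere and by 3.06 in full medium. GJA5 rose in both, by 4.28 and 3.24, as did KLK6, by 2.51 and 2.74, and MSN, by 3.29 and 3.7. KDM6A rose by 6.85 in sphere and by 5.31 in full medium, where it had 692, 687 and 702 CPM in HEAA, against 16.5, 17.9 and 17.8 CPM in EV.

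Negative interactions were led by SESN3, a stress-induced regulator of growth signalling, with 5.76, 5.86 and 5.81 CPM in HEAA, against 9.11, 9.12 and 9.65 CPM in EV, in sphere medium. In full medium SESN3 had 1.02, 0.732 and 0.668 CPM in HEAA, against 0.0354, 0.0879 and 0.0496 CPM in EV, and its interaction was -4.37 ± 0.33 (adjusted p = 1.53e-09). MUC4, a membrane mucin, had 15, 14.7 and 12.4 CPM in HEAA, against 2.2, 1.91 and 2.06 CPM in EV, in full medium, and was below 1 CPM in sphere medium in every library of both groups. TCIM (-3.31 ± 0.22) and MCF2L (-2.77 ± 0.16), a guanine nucleotide exchange factor, were lower in HEAA in sphere medium and higher in full medium. The interaction of LOXL2 (-3.47 ± 0.86) was -1.98 without the second EV library of sphere medium (adjusted p = 0.0299).

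Among the lists, DNA replication genes were lower in HEAA for all 30 in full medium (median -0.59), and their interaction was positive for 29 of 30 and negative for 0 (median 0.51). In sphere medium 4 of the 30 were higher and 11 lower. MCM2, a subunit of the replicative helicase, rose by 0.22 in sphere medium and fell by 0.31 in full medium. The subunits MCM3, MCM5, MCM6 and MCM7 fell in both media, by 0.15, 0.23, 0.18 and 0.21 in sphere medium. In full medium they fell by 0.66, 0.57, 0.72 and 0.66. MCM4 was not called in sphere medium (-0.06) and fell by 0.49 in full medium. The interaction of serine synthesis and ATF4 genes was negative for 17 of 23 and positive for 0 (median -0.42), and in full medium 8 were higher and 8 lower. CHAC1 fell by 0.68 in sphere medium but rose by 1.15 in full medium, with 3.71, 3.81 and 4.93 CPM in HEAA, against 2.09, 1.7 and 1.86 CPM in EV. Collagen and matrix genes were higher in HEAA for 22 of 32 in full medium, and their interaction was negative for 13 and positive for 3, with COL12A1 at -1.96 in sphere and -0.11 in full medium. SRF and actin genes were higher for 17 of 22 in full medium, with a negative interaction for 12 and a positive one for 2. Ribosomal protein genes were lower in HEAA for all 47 in full medium (median -0.57), and IGF2 (-0.98) fell there as well.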

How the data were processed

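Per the labels' protocols, RNA came from Qiagen RNeasy kits and libraries from Illumina TruSeq kits. The authors deposited expected counts per gene as whole numbers. The submitters' processing notes name Salmon 0.8, DESeq2 and the builds hg19 and GRCh37, but how transcripts were summed to genes, and with which annotation, was not given in the sources used here. All 18 libraries of the experiment in both media, with 23749352 to 40111234 counts, entered 1 edgeR 4.0.16 fit (R 4.3.3, limma 3.58.1) with filterByExpr, TMM and 1 mean for each of 6 groups. Quasi-likelihood p-values were adjusted by Benjamini and Hochberg over 19629 genes, and SE is the log2 fold change over the root of F. Common biological variation was 4.58%. The method was run on counts simulated from the fit's own means and dispersions. Such a run cannot show whether libraries shared a culture or a batch. Named genes were KDM6A, the 12 largest rises and falls and 6 in each direction against UTX, all with groups that do not overlap, 6 in each direction in the interaction, up to 4 in each direction in each list, all at 2 CPM or more with an adjusted p under 0.05, and every gene of the KMT2C/KMT2D and PRC2 lists. Genes and lists were chosen with earlier results of these data known, and ADGRA3, no subunit, was taken out of the KMT2C/KMT2D list after its value was seen. Alternatives were DESeq2 1.42.0, other size factors, no filter, only the libraries compared, a replicate block and leaving out each library. A second count table, of an FGFR3 experiment, was not used here, and a few genes that the naming rule took are not reported here. Positions are from GENCODE v29 (GRCh38), which is not the authors' build. Intervals and floors cover counting error only.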

Additional observations from a re-analysis of the deposited data

Results flagged for a closer look

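In 12 genes the log2 fold change of HEAA against EV in sphere medium minus that in full medium differed from 0 by edgeR's quasi-likelihood test of the interaction and was among the 6 largest in its direction. The interaction was positive for S100A7 (10.45), S100A8 (6.44), CYP4F22 (6.37), PI3 (6.3), SERPINB3 (5.85) and KRT23 (5.44). It was negative for SESN3 (-4.37), POLR2J2 (-4.09), LOXL2 (-3.47), TCIM (-3.31), MUC4 (-3.01) and MCF2L (-2.77). KRT23, a type I keratin, had 20, 19.4 and 22.1 CPM in HEAA, against 4.47, 6.19 and 5.21 CPM in EV, in sphere medium, and in full medium 6 counts in HEAA stood against 83 in EV. TCIM had 4.28, 4.59 and 3.86 CPM in HEAA, against 14.5, 12.7 and 16.5 CPM in EV, in sphere medium. In full medium TCIM had 2.51, 2.78 and 2.51 CPM in HEAA, against 1.17, 0.616 and 0.943 CPM in EV. The interaction of POLR2J2 (adjusted p = 0.0396) lost its call with DESeq2 (adjusted p = 0.254) and without any 1 of 8 of the 12 libraries (adjusted p = 0.0507 to 0.232), and it was -2.87 without the first HEAA library of full medium. Without the third HEAA library of sphere medium it was -11.03, a fitted value that depends on the prior count, and without the third EV library of full medium it was -4.89. Without the second HEAA library of full medium the interaction was 8.29 for CYP4F22 and 7.54 for PI3.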

How the results depend on the processing

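Of the counts of genes called, 1 moved by more than 1.5 times: 998 genes were lower in HEAA than in UTX in sphere medium without the second UTX library, against 1742 with it, and leaving out each library gave 998 to 1347. In sphere medium against EV, leaving out each library gave 3642 to 3912 genes higher and 3445 to 3823 lower, DESeq2 gave 3740 higher and 3522 lower, and a replicate block gave 3855 higher and 4146 lower. The block gave 2104 higher and 1675 lower against UTX, and 3598 positive and 2718 negative interactions. Same-numbered HEAA and EV libraries in sphere medium deviated with correlations of 0.11, -0.03 and -0.11, and those of different number with -0.07 to 0.13. No pairing by number was seen, but such values cannot tell whether libraries shared a batch. In sphere medium against EV most alternatives turned the balance of higher and lower calls. Upper-quartile factors turned it in each comparison. They gave 4221 higher and 3892 lower in sphere medium, 5462 higher and 4160 lower in full medium, 1962 higher and 2046 lower against UTX, 4925 higher and 4493 lower in UTX against EV, and 3227 positive and 3285 negative interactions. No called gene named changed sign, but medians near 0 did, over the alternatives: collagen and matrix genes (-0.13 to 0.11), developmental factors (-0.07 to 0.02), connexins (-0.02 to 0.02), mitosis genes (-0.01 to 0.07), mitochondrial RNA (-0.01 to 0.15) and PPAR targets (-0.13 to 0.01). Of 291 genes the naming rule took against EV, 24 lost their call under at least 1 alternative. CA9 and 10 others (GRHL3, S100A3, DSC1, GJA3, PPARA, LAMB2, INSR, HOXB7, RFC3 and ND4L) lost it without the second EV library. Low counts limit the folds of CDSN, S100A7 and CYP4F22.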
